A study of Mus musculus with 11 samples.

Results

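The cells described here are the endoderm-like cells among wild-type mouse embryonic stem (ES) cells of the E14 line, cultured in serum with leukaemia inhibitory factor (serum/LIF) on tissue-culture plastic. A cell counted as endoderm-like when it held at least 1 unique molecular identifier (UMI, a tag that marks 1 captured RNA molecule) of 3 or more of 12 genes: Gata4, Gata6, Sox17, Foxa2, Sox7, Col4a1, Col4a2, Lama1, Lamb1, Sparc, Dab2 and Pdgfra. Of 725 cells in this library, 116 met the rule (16%, exact binomial 95% interval 13.4 to 18.9), 392 held 1 or 2 of the genes, and 217 held none and served as the comparison, called marker-free cells. All 5 single-cell libraries of the series together held 7079 cells. The 12 genes chose the cells, so their levels in the chosen cells describe the choice. Other genes of these cells are described without a test as well, because each condition was a single library. Intervals given for levels, folds and shares are exact 95% Poisson or binomial intervals and cover counting error only.

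The study set ES cells in soft agarose microgels against cells on plastic, and asked what plakoglobin (the product of Jup) does for naive pluripotency. Its single-cell libraries were made with inDrop, a droplet method. E14 wild-type cells were taken from serum/LIF on plastic, from serum/LIF in agarose microgels, and from 2i/LIF on plastic, where 2i is a pair of kinase inhibitors that holds ES cells in a naive state. Both other libraries came from cells in serum/LIF on plastic, carrying genotypes PGHIGH and PGLOW, that is, high or low plakoglobin overexpression from the constitutive CAG promoter. They are called the libraries labelled JupHigh and JupLow, because the level of Jup over all cells, 48.3 UMIs per 1000000 (39.5 to 58.5) and 41.7 (30.9 to 54.9), overlapped within counting error with 33.1 (21.2 to 49.3) in wild-type serum/LIF on plastic. Whether the transcript of the transgene is counted as Jup is not given in the sources used here, so this overlap does not settle the labels. The labels name neither the parent line of these cells nor whether each is 1 clone.

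Primitive endoderm is the lineage of the blastocyst that forms beside the epiblast, and it depends on the GATA and SOX family transcription factors of the rule. Its parietal derivative lays down Reichert's membrane, a thick basement membrane of type IV collagen, laminin, nidogen, perlecan and SPARC, and its visceral derivative takes up and secretes nutrients. ES cells correspond to the epiblast, and cultures in serum/LIF are known to give rise to cells of the endoderm lineage without added signals.

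Among the cells that met the rule, 48 held 5 or more of the 12 genes and 68 held 3 or 4. Over all 725 cells, 217, 269, 123, 43, 25 and 6 cells held 0, 1, 2, 3, 4 and 5 of the genes, and between 2 and 8 cells stood at each number from 6 to 12. The numbers thus fell from 269 cells at 1 gene to 6 at 5 genes. They stood at 8 cells at 6 genes and at 2 at all 12. With every cell thinned at random to 1000 UMIs, 5 cells held 4 of the genes, 15 held 6, and none held more than 9. Cells on either side of the threshold were much alike: the 123 cells with 2 rule genes had a median of 1 rule-gene UMI per 1000 (range 0 to 5), and the 43 cells with 3 had a median of 2 (0 to 5). The 8 cells with 6 rule genes had a median of 13 (8 to 51). The division into 5 or more and 3 or 4 was made after these values were seen, and values are given for each.

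**Figure D1:**
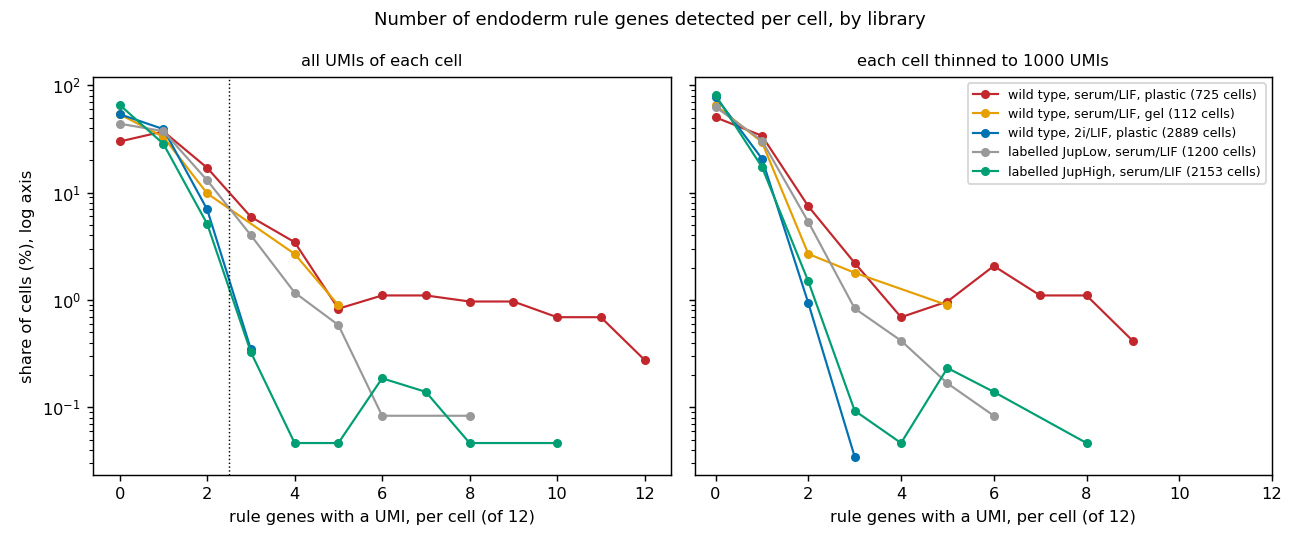
Share of cells (percent, log axis) against the number of the 12 rule genes with a UMI, for each of the 5 libraries, with all UMIs (left, the dotted line marks the rule) and after thinning each cell to 1000 UMIs (right); numbers with no cell have no point. The wild-type serum/LIF library on plastic runs on beyond 5 genes in the left panel, with 8 cells at 6 genes and 2 at 12. The libraries labelled JupHigh and JupLow also run on beyond 5 genes there, as far as 10 and 8 genes.

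The transcription factors are rule genes, so their counts describe what kind of cell the rule chose and do not test the endoderm label. At least 1 of the transcription factors Gata4, Gata6, Sox17, Foxa2 and Sox7 had a UMI in 44 of the 48 cells with 5 or more rule genes, and in 14 of the 68 with 3 or 4. Gata4 or Gata6, the GATA factors that head the primitive endoderm programme, had a UMI in 42 of 48 and 8 of 68 cells. Sox17 or Sox7, SOX factors of the same programme, had one in 26 of 48 and 11 of 68. All 5 factors were seen together in 5 of the 48 cells. For comparison, barcodes under 500 UMIs of the same library, which can hold free RNA or parts of cells, were read as well. Gata6 stood in them at 62.6 UMIs per 1000000, against 708.3 in the 48 cells and 44.1 in the 68 after thinning. Gata4 stood at 30.4 in these barcodes, 354.2 in the 48 cells and 14.7 in the 68. With 3 and 1 UMIs in the 68 cells, neither GATA factor differed there from the low barcodes beyond counting error (9.1 to 128.9 and 0.372 to 81.9). That level is no floor for whole cells: cells with none of the other 11 rule genes held Gata6 at 9.01 (1.09 to 32.5).

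The basement membrane genes of the rule showed the same order. All levels from here on are UMIs per 1000000 (CPM) after each cell was thinned to 1000 UMIs. Lama1, a laminin alpha chain, stood at 3750 in the 48 cells, 102.9 in the 68 and 165.4 in barcodes under 500 UMIs. Col4a1, a chain of type IV collagen, stood at 3625, 308.8 and 289.3 in the same order. Its partner chain Col4a2 stood at 2979.2, 235.3 and 159.4. Sparc, a matrix glycoprotein, stood at 7791.7, 867.6 and 1007. For these 4 genes the 48 cells were far above the low barcodes and the 68 cells were not. Lamb1, a laminin beta chain, and Dab2, an endocytic adaptor of the endoderm, differed in this respect: in the 68 cells they stood at 382.4 and 235.3, above the 135 and 58.5 of the low barcodes. Foxa2, a forkhead factor, and Pdgfra, a growth factor receptor of early primitive endoderm, had no UMI in any of the 68 cells. With all UMIs they were seen in 17 and in 16 of the 48 cells, and after thinning in 5 and in 7.

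Single cells with 5 or more rule genes varied widely. Sparc ran from 0 to 20 UMIs per 1000 with a median of 8, Col4a1 from 0 to 15 with a median of 3, and Lama1 from 0 to 13 with a median of 3. Gata6 ran from 0 to 2 with a median of 0.5. The matrix genes were thus read in most of these cells and the factors in only some of them at this depth, which means that a cell without a factor UMI is not shown to lack the factor.

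**Figure D2:**
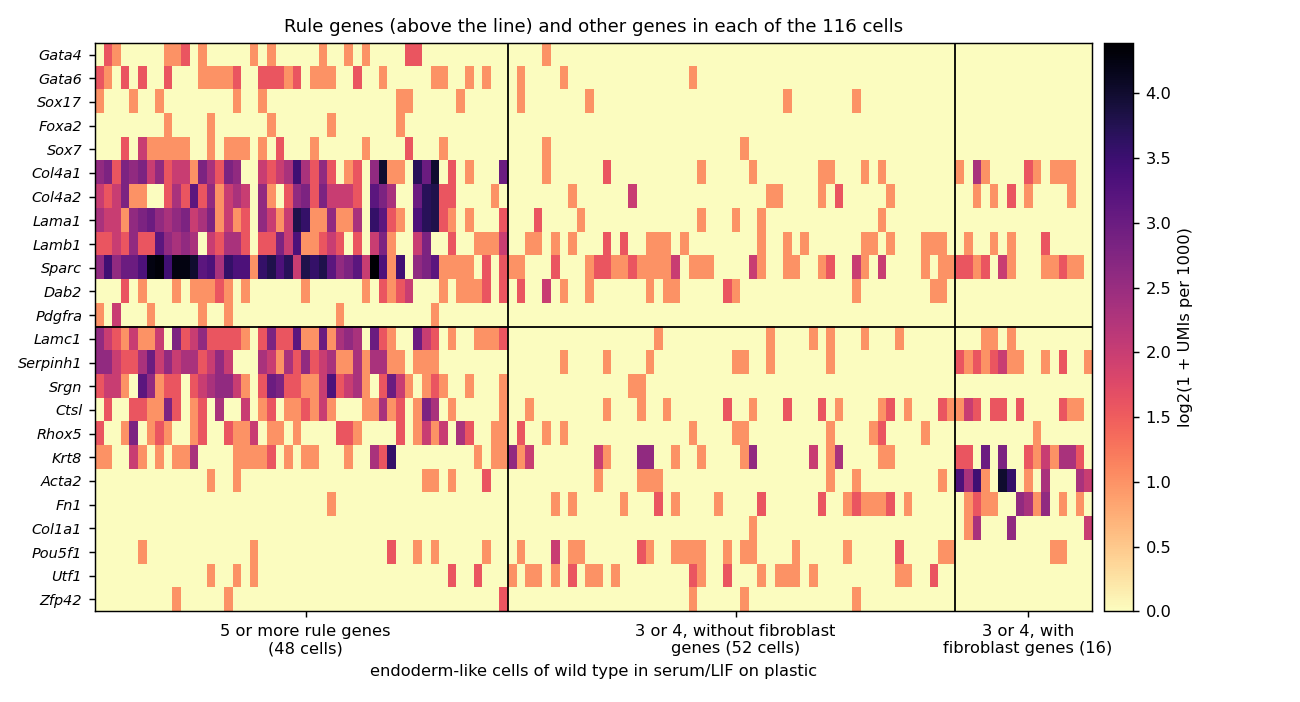
Colour gives log2(1 + UMIs per 1000) of each gene (rows) in each of the 116 cells (columns), with rule genes above the horizontal line. Col4a1, Lama1, Sparc, Lamc1, Serpinh1 and Srgn each have a UMI in 36 to 45 of the 48 cells with 5 or more rule genes. In the 16 cells at the right Acta2 and Krt8 each have a median of 2 UMIs per 1000, with some cells at 0.

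Each rule gene was then read in cells chosen by the other 11, a reading that its own choice does not fix, though the genes were listed for their joint presence in endoderm. Col4a1 stood at 1946.8 CPM in cells with 3 or more of the other genes and at 34.8 in cells with none, a ratio of 56.0 (27.8 to 131.6). Lama1 stood at 1742.9 against 33.9, a ratio of 51.4 (25.5 to 120.9), and Sparc at 5128.2 against 350.4, a ratio of 14.6 (12 to 17.9). Among the factors, Gata6 stood at 318.6 against 9.01, a ratio of 35.4 (9.10 to 303.2) that rests on 2 UMIs in the cells with none. Gata4 stood at 157.9 against 13.6, a ratio of 11.6 (3.38 to 61.4). Sox17 stood at 89.3 against no UMI, at least 6.46-fold higher when 3 counts are put in the place of 0. All 12 genes were higher in the pooled cells chosen by the others, but Foxa2, at 43.1 against 4.59, had an interval from 1.05 to 444.4. The cells with 5 or more of the other genes carried most of this. With 5 or more others and with 3 or 4 others, Lama1 stood at 3933.3 and 100 CPM and Gata4 at 369.6 and 14.7, the last level with the 13.6 of cells with none. Foxa2 and Pdgfra had no UMI in cells with 3 or 4 others after thinning. Some rule genes stood higher in those cells than in cells with none. Col4a1 stood at 340 (198.1 to 544.4) against 34.8 (15 to 68.5), and Col4a2 at 163.6 against 26.4. Lamb1 stood at 367.3 against 67.7, Sparc at 888.9 against 350.4 and Dab2 at 234.4 against 17.9. For Gata4, Gata6, Sox17, Sox7 and Lama1 the intervals of the 2 groups overlapped.

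**Figure D3:**
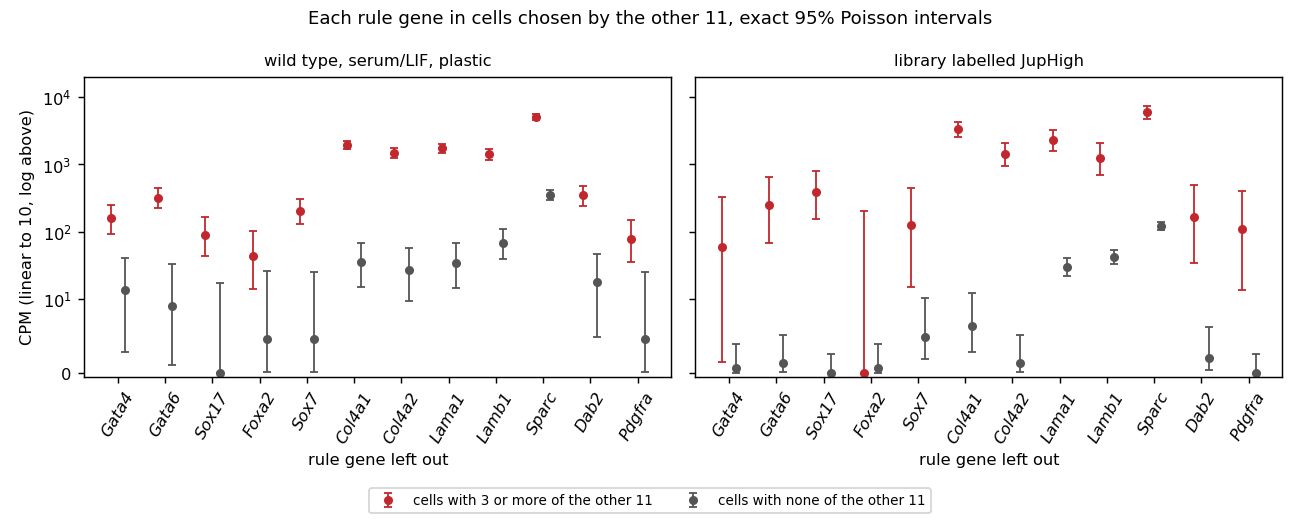
Level (CPM, linear to 10 and log above) of each rule gene in cells with 3 or more of the other 11 (red) and with none of them (grey), with exact 95% Poisson intervals, in wild-type serum/LIF on plastic (left) and the library labelled JupHigh (right). In wild type the red point lies above the grey point for all 12 genes, and Sparc has the highest grey point.

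In the GRCm38 assembly with the GENCODE M21 annotation, Lama1 lies at chr17:67697259-67822647 on the plus strand and Sparc at chr11:55394500-55423183 on the minus strand. Gata4 and Sox7 lie on the same chromosome, at chr14:63198922-63271692 and chr14:63943673-63950732. Col4a1 and Col4a2 lie head to head on chromosome 8, and their annotated 5′ ends share 22 bases. Whether the counting used strand is not given in the sources used here, so reads within shared exons cannot be assigned to 1 gene; of 147 genes looked up, 45 overlap an exon of another gene, Col4a1, Col4a2, Dab2, Ctsl, Plod2, Krt8, Cubn, Fn1 and Pou5f1 among them.

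GATA factors bind short motifs built on the letters that give them their name, and the promoters of the leading genes were searched on both strands for AGATAA or TGATAA, and likewise for AGATAG or TGATAG. RefSeq windows of 300 bases, 250 before and 50 after an annotated start site (GRCm38.p6), were at hand for 7 of the 12 rule genes, 10 windows in all, of which 2 held a match, those of Foxa2 and Dab2. Of the 10 genes outside the rule that were highest in the endoderm-like cells, 9 had windows. These were 12 windows, of which 2 held a match (16.7%). Of all 32851 windows, 29.8% held a match, so neither set of genes stood out in this count. The window of Dab2 is shown because Dab2, unlike Foxa2, was above the level of low barcodes in both the 48 and the 68 cells. It covers chr15:6299539-6299788, plus strand, the 250 bases before the first annotated start site, with the TGATAA that starts 179 bases before it in capitals. The same window held a second match, TTATCT, 14 bases after the start site and so outside the stretch shown. A second annotated start of Dab2 had no match in its window.
Dab2: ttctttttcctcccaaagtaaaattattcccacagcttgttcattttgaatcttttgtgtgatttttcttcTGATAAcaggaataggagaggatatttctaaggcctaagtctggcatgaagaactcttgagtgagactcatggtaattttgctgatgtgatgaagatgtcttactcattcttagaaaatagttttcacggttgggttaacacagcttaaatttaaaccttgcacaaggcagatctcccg

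Outside the rule, genes of primitive and parietal endoderm were higher in the endoderm-like cells. A gene was counted as higher or lower when its level differed by more than 2-fold (after 10 CPM was added to both levels) and the mean of both groups was at least 100 CPM; a gene can pass that filter through 1 group alone. Of 38 listed genes in the table, 23 passed the filter, 17 were higher and none lower in the 116 cells, with a median log2 ratio of 2.77. Over all 1838 genes that passed, 149 were higher (8.11%) and 39 lower (2.12%), with a median of 0.03. Because the cells were chosen by genes of the same programme in the same libraries, these shares are a description. Summed over the list, the level was 11879.3 CPM against 2488.5, a log2 ratio of 2.26 (2.11 to 2.40). A second random thinning of the same cells gave a value below this interval, as listed in the closing section. In the 48 cells with 5 or more rule genes the sum was 19812.5 and the log2 ratio 2.99 (2.84 to 3.15); 20 of 25 genes were higher and 2 lower, beside 19.1% higher and 7.56% lower over all 1919 genes. In the 68 cells with 3 or 4 the log2 ratio was 1.34 (1.15 to 1.52), and 9 of 15 genes were higher, beside 7.66% higher and 2.77% lower over all 1802 genes. This value was uneven within the 68: the sum was 10187.5 CPM (8683.6 to 11877.1) in 16 cells that also held fibroblast genes, described further on, and 5076.9 (4482.9 to 5727.7) in the other 52.

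The basement membrane components outside the rule were led by Lamc1, the gamma chain that completes the laminin trimer with Lama1 and Lamb1 (chr1:153218922-153332786). It stood at 2395.8 CPM in the 48 cells, 132.4 in the 68 and 82.9 in marker-free cells, 28.9-fold higher (17.5 to 50.5) in the 48. Per cell, Lamc1 ran from 0 to 8 UMIs per 1000 in the 48 cells, with a median of 2. Hspg2, the perlecan core protein, stood at 270.8, 132.4 and 13.8, and Nid1, a nidogen that joins laminin to collagen, at 312.5, 88.2 and 41.5. Both were higher in the 48 cells than in marker-free cells beyond counting error, 19.6-fold (5.38 to 107.2) and 7.53-fold (3.09 to 19.5). Fn1, fibronectin, ran the other way: it had 1 UMI in the 48 cells, 20.8 CPM, against 184.3 in marker-free cells and 617.6 in the 68, and was 8.85-fold lower (1.5 to 358.1) in the 48. Col18a1, another basement membrane collagen, stood at 62.5 in the 48 cells, 205.9 in the 68 and 202.8 in marker-free cells.

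Genes for folding and exporting collagen and laminin stood beside them. Of 21 such genes in the table, 11 passed the filter in the 116 cells, 7 were higher (beside 8.11% of all genes) and none lower, with a median log2 ratio of 1.30. In the 48 cells 12 of 13 were higher, beside 19.1% of all genes, and the summed log2 ratio was 2.24 (2.05 to 2.42), against 0.62 (0.38 to 0.85) in the 68. Within the 68 the sum was 4812.5 CPM in the 16 cells with fibroblast genes and 2750 in the other 52, beside 2110.6 in marker-free cells. Serpinh1, the collagen chaperone HSP47 (chr7:99345376-99353239), stood at 2250, 352.9 and 41.5 CPM in the 48, the 68 and the marker-free cells, 54.2-fold higher (27.5 to 121.8) in the 48. The prolyl hydroxylase subunits P4ha1 and P4ha2 each stood at 645.8 in the 48 cells and 44.1 in the 68, against 23.0 and 13.8 in marker-free cells. Their partner P4hb, which also serves as a general disulphide isomerase, stood at 1312.5, 235.3 and 258.1. The lysyl hydroxylase Plod2 stood at 958.3, 102.9 and 46.1, a ratio of 20.8 (10.4 to 46.2) for the 48 cells. The general chaperones of the endoplasmic reticulum differed less: Hspa5 was 2.55-fold (1.72 to 3.74) and Pdia3 2.93-fold (1.24 to 6.62) higher in the 48 cells. In the 68 cells none of these 4 hydroxylase genes differed from marker-free cells beyond counting error, with folds of 1.91 (0.297 to 9.84) for P4ha1, 3.19 (0.427 to 23.8) for P4ha2, 0.912 (0.488 to 1.61) for P4hb and 2.23 (0.722 to 6.5) for Plod2. Only the interval of P4hb is narrow enough to place it near the marker-free level.

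Several further genes of the parietal and primitive endoderm list were high in the same 48 cells. Srgn, the proteoglycan core protein serglycin (chr10:62493833-62527451), stood at 2333.3 CPM in the 48 cells, 29.4 in the 68 and 69.1 in marker-free cells, a ratio of 33.8 (19.6 to 62.3) for the 48. It ran from 0 to 9 UMIs per 1000 in these cells, with a median of 2, while the 68 cells together held 2 UMIs. F3, tissue factor, stood at 645.8, 191.2 and 27.6. Rhox5, an X-linked homeobox gene of extraembryonic cells, stood at 1020.8, 191.2 and 59.9, a ratio of 17.0 (9.10 to 34.2) for the 48. Cryab, a small heat shock protein, stood at 833.3, 147.1 and 46.1. Pth1r, the parathyroid hormone receptor known from parietal endoderm, had 14 UMIs in the 48 cells (291.7 CPM) and 1 in the 217 marker-free cells. Bmper, a secreted regulator of BMP signalling, and Timp2, an inhibitor of matrix proteases, had 15 and 17 UMIs in the 48 cells and none in the marker-free cells, at least 22.6-fold and 25.6-fold higher. Outside the lists, Me1, malic enzyme, stood at 562.5 in the 48 cells, 73.5 in the 68 and 13.8 in marker-free cells. Ccn1, a secreted matrix-associated protein, stood at 1083.3, 117.6 and 50.7.

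Endocytosis and lysosome genes were also high. Of 17 in the table, 7 passed the filter in the 116 cells, 6 were higher (beside 8.11% of all genes) and none lower, with a median log2 ratio of 1.90; in the 48 cells all 8 that passed were higher, beside 19.1% of all genes. The lysosomal protease Ctsl stood at 1250 CPM in the 48 cells, 514.7 in the 68 and 106.0 in marker-free cells, and was 11.8-fold higher (7.18 to 20) in the 48. Lgmn, the lysosomal protease legumain, stood at 645.8, 44.1 and 23.0. The lysosomal membrane protein Lamp1 stood at 520.8, 220.6 and 101.4, and the tetraspanin Cd63 at 500, 308.8 and 138.2. The large uptake receptor Lrp2 (megalin) stood at 562.5, 176.5 and 82.9, and its chaperone Lrpap1 at 458.3, 44.1 and 23.0. Cubn, cubilin, which works with megalin, had 14 UMIs in the 48 cells and none in the 217 marker-free cells, at least 21.1-fold higher. Lrp2 and Cubn also stand on the list of visceral endoderm genes. Of 21 such genes in the table, 3 passed the filter in the 48 cells. All 3 were higher, beside 19.1% of all genes. The gene besides Lrp2 and Cubn was Spink1, a secreted protease inhibitor, at 166.7 CPM against 36.9. In marker-free cells each of the 3 stood below the mean that the filter asks for, so they passed through the 48 cells. Their direction was thus nearly fixed by the filter, and this count is a description only. At least 2 genes of the list were seen in 35 of the 48 cells (72.9%, 58.2 to 84.7), 18 of the 68 (26.5%) and 17 of the 217 (7.83%) with all UMIs, and in 39.6%, 5.88% and 1.84% after thinning. Apoa1, Apob and Hnf4a, other genes of that list, had no UMI in the 48 cells. The visceral markers Ttr and Afp were not analysed here.

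**Figure D4:**
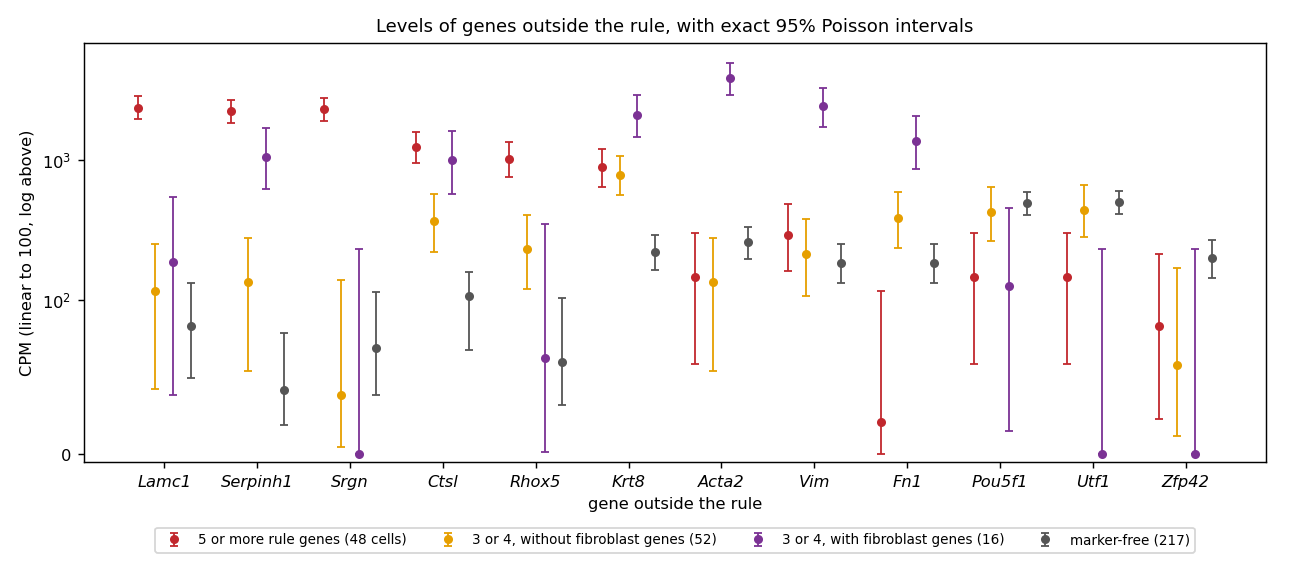
Level (CPM, linear to 100 and log above) of 12 genes outside the rule, with exact 95% Poisson intervals, in 4 groups of cells of wild-type serum/LIF on plastic. Lamc1, Serpinh1 and Srgn lie above 2000 in the 48 cells with 5 or more rule genes; Acta2 and Vim are highest in the 16 cells with fibroblast genes.

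Most matrix receptor and adhesion genes that passed the filter were higher in the endoderm-like cells. Of 17 listed genes, 7 passed in the 116 cells, with 6 higher and 1 lower. In the 48 cells 3 of 5 were higher and 1 lower, and in the 68 cells 5 of 6 were higher and 1 lower. The shares of all genes that were higher were 8.11%, 19.1% and 7.66% in the same order. Itgb1, the integrin beta 1 chain, stood at 375 CPM in the 48 cells, 485.3 in the 68 and 161.3 in marker-free cells. Within the 68 it stood at 937.5 (524.7 to 1546.3) in the 16 cells with fibroblast genes and 346.2 (205.2 to 547.1) in the other 52. Its tetraspanin partner Cd151 stood at 229.2, 147.1 and 36.9, and the actin crosslinker Actn1 at 520.8, 588.2 and 188.9. Flna, another actin crosslinker, stood at 458.3, 514.7 and 225.8, which in the 48 cells was not past the limit (log2 ratio 0.99). The laminin-binding alpha chains Itga3 and Itga6 stood at 163.8 and 189.7 in the 116 cells, against 55.3 and 69.1, though their intervals for the 48 cells alone, 0.520 to 5.74 and 0.428 to 4.36 as folds, include no difference. Dag1, dystroglycan, a laminin receptor outside the integrin family, was 2.49-fold lower (1.2 to 5.83) in the 116 cells.

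Pluripotency genes were lower in the 48 cells and not equally so. Of 12 general pluripotency genes past the filter, 1 was lower in the 116 cells and 7 in the 48, beside 2.12% and 7.56% of all genes; the summed log2 ratios were -0.66 (-0.83 to -0.49) and -1.09 (-1.38 to -0.82), and -0.42 (-0.62 to -0.23) in the 68. Within the 68, the sum was 1375 CPM (861.7 to 2081.8) in the 16 cells with fibroblast genes and 4692.3 (4122 to 5319.5) in the other 52, whose interval overlapped that of the marker-free cells, 5235 (4935 to 5548.5). Pou5f1, which encodes OCT4 (chr17:35506018-35510772), stood at 145.8 CPM in the 48 cells, 352.9 in the 68 and 493.1 in marker-free cells, 3.38-fold lower (1.59 to 8.61) in the 48. Utf1, a chromatin protein of ES cells, was 3.44-fold lower (1.62 to 8.77), and Tdgf1, the NODAL co-receptor Cripto, was 6.53-fold lower (1.73 to 55.1). Dppa4 had no UMI in the 48 cells against 46 in the marker-free cells, at least 3.39-fold lower. Tdh, threonine dehydrogenase, on which mouse ES cells depend, was 4.22-fold lower (2.10 to 9.60) in the 116 cells. L1td1 and Chchd10 were the other 2 of the 7, 3.24-fold (1.43 to 9.08) and 2.21-fold lower, the latter with an interval from 0.887 to 7.11. The 7 UMIs of Pou5f1 in the 48 cells do not show its expression there, since barcodes under 500 UMIs held it at 439 CPM.

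Naive pluripotency genes did not all go one way. Zfp42, the naive marker REX1, stood at 83.3 CPM in the 48 cells, 44.1 in the 68 and 198.2 in marker-free cells, and was 3.28-fold lower (1.46 to 8.65) in the 116 cells. In the 48 cells alone it was 2.38-fold lower, with an interval from 0.864 to 9.12 that includes no difference. Klf4, a naive factor that is also expressed in endoderm, was higher in the 48 cells, at 229.2 against 64.5, a ratio of 3.55 (1.46 to 8.42), and stood at 44.1 in the 68. Nanog, which opposes Gata6 in the blastocyst, had 4 UMIs in the 116 cells and 21 in the 217 marker-free cells, and Esrrb had 5 and 16; neither difference exceeded counting error. Jup itself had 7 and 9 UMIs, a ratio of 1.45 (0.460 to 4.39), so that no difference in plakoglobin was detectable at this depth. Etv5, a target of FGF and ERK signalling, had no UMI in the 48 cells against 52 in marker-free cells, at least 3.83-fold lower, and stood at 132.4 CPM in the 68 against 239.6. The other genes among the 10 with the lowest ratios were Pml, Resf1, Dnajc2, Ifitm1, Gldc, Tet1 and Klhl13; of these Tet1, a DNA demethylase of ES cells, stood at 103.4 in the 116 cells against 322.6.

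Per cell, endoderm and pluripotency UMIs were set side by side, with the list of primitive and parietal endoderm genes outside the rule taken without its keratins. Marker-free cells held 0 to 10 endoderm UMIs per 1000 with a median of 2, the 68 cells 0 to 13 with a median of 4, and the 48 cells 2 to 35 with a median of 19.5. Of the 48 cells, 38 lay above the highest marker-free cell, and of the 68, 5 did. For naive and general pluripotency genes the medians were 6 (0 to 21), 4 (0 to 15) and 3 (0 to 9). The groups overlapped throughout in pluripotency UMIs, and 10 of the 48 cells overlapped with marker-free cells in endoderm UMIs.

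**Figure D5:**
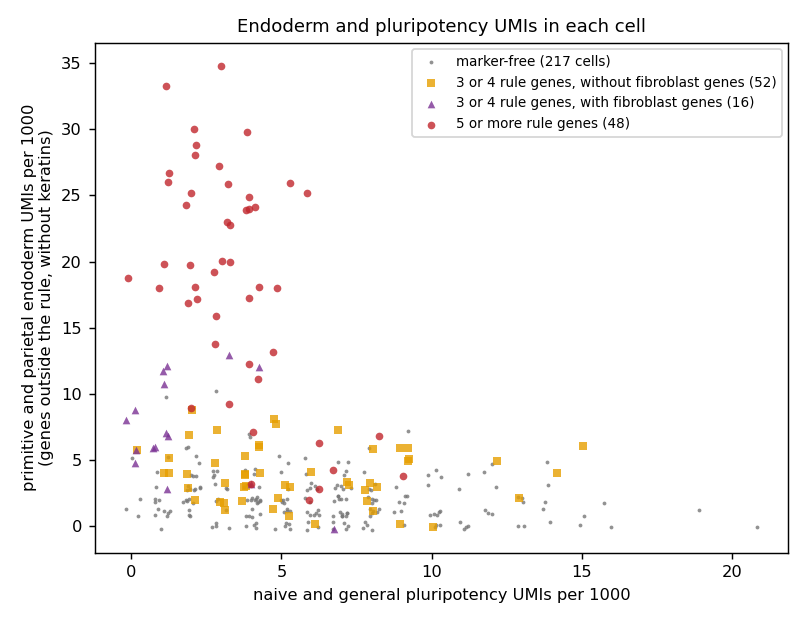
Each point is 1 cell of wild-type serum/LIF on plastic, thinned to 1000 UMIs, with naive and general pluripotency UMIs on the x axis and primitive and parietal endoderm UMIs outside the rule on the y axis; points are shifted slightly at random so that they do not hide each other. Most of the 48 cells with 5 or more rule genes lie above the highest marker-free cell, which had 10 endoderm UMIs.

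Markers of another cell type moved with part of the endoderm-like cells. With all UMIs of each cell, at least 2 of 19 fibroblast and feeder genes had a UMI in 16 of the 68 cells with 3 or 4 rule genes (23.5%, 14.1 to 35.4), in 4 of 217 marker-free cells (1.84%, 0.504 to 4.65) and in 0 of the 48 (0 to 7.4%). After thinning to 1000 UMIs the numbers were 5 of 68 (7.35%), 1 of 217 (0.461%) and 0 of 48. On the same measure neural genes were seen in 13 of the 68 cells (19.1%) and 6 of the 217 (2.76%) with all UMIs, and in 3 (4.41%) and 3 (1.38%) after thinning. Trophoblast and primitive streak genes were each seen in 5 of the 68 (7.35%) with all UMIs, against 0.922% and 0.461% of the 217, and in 0 of the 68 after thinning. In the 48 cells trophoblast genes were seen in 3 (6.25%) with all UMIs and in 1 (2.08%) after thinning. The 16 cells with fibroblast genes were set apart after their values were seen and by genes of this list, so the values of the list in them describe the choice. Col1a1, the defining collagen of fibroblasts, had a UMI in 10 of the 16 and in 1 of the 217 marker-free cells. Col1a2 and Col3a1 each had one in 6 of the 16. Pdgfrb, Lum, Dcn, Postn, Twist2 and Prrx1, also on the list, were at 0 in the 16 cells. Summed, the list stood at 1687.5 CPM in the 16 cells (1112.1 to 2455.2; 0 to 9 UMIs per cell), 96.2 in the other 52 of the 68 (0 to 1 per cell), 20.8 in the 48 (0 to 1 per cell) and 101.4 in marker-free cells (0 to 2 per cell).

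Matrix genes of the rule were read in the 16 cells and endoderm factors were not detected. None of the 5 factors, nor Lama1, Dab2 or Pdgfra, had a UMI in them after thinning (exact interval 0 to 230.6 CPM), a limit below the level of Gata4, Gata6, Sox7 and Lama1 in the 48 cells but not below that of Sox17, Foxa2 or Pdgfra. In the same cells Sparc stood at 1062.5 CPM and Col4a1 at 750. Acta2, smooth muscle actin, stood at 3875 in the 16 cells, 134.6 in the other 52, 145.8 in the 48 and 258.1 in marker-free cells. Vim, vimentin, stood at 2437.5, 211.5, 291.7 and 184.3 in the same order, and Thbs1, thrombospondin, at 1437.5, 76.9, 41.7 and 32.3. Serpinh1 stood at 1062.5 in the 16 cells and 134.6 in the other 52, and Pou5f1 at 125 and 423.1. Of 14 contractile genes, 5 of 8 past the filter were higher in the 116 cells (Acta2, Cnn2, Tagln2, Thbs1 and Vim), beside 8.11% of all genes, and the summed log2 ratio of 1.26 (1.06 to 1.46) became 0.68 without the cells that held fibroblast genes. In the 48 cells it was 0.56 (0.25 to 0.86), where Tagln2 was the 1 gene counted as higher, at 958.3 against 230.4. Tagln, a smooth muscle gene, was counted as lower there, at 62.5 against 179.7, 2.88-fold with an interval from 0.914 to 14.5. Over all genes 19.1% were higher and 7.56% lower in the 48 cells. The 16 cells had a median of 5129.5 UMIs before thinning, against 3009 in the other 52, 2751.5 in the 48 and 1895 in marker-free cells. The number of cells with 2 or more fibroblast genes went from 16 to 5 at equal depth, as given above; the part of droplets with more than 1 cell was not tested.

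Of the simple-epithelium keratins, Krt8 was higher than in marker-free cells in each group that met the rule, the 16 cells with fibroblast genes included. Krt8, the keratin of simple epithelia, endoderm included, stood at 895.8 CPM in the 48 cells, 788.5 in the 52, 2125 in the 16 and 221.2 in marker-free cells, and was 4.05-fold higher (2.62 to 6.24) in the 48. Its partner Krt18 stood at 229.2 in the 48 cells, 411.8 in the 68 and 170.5 in marker-free cells, and at 373.6 in barcodes under 500 UMIs. Anxa2, an annexin found in many epithelia, stood at 854.2, 308.8 and 110.6 in the 48, the 68 and the marker-free cells. Summed after thinning, trophoblast, neural and primitive streak genes had 13, 21 and 11 UMIs in the 116 cells and 19, 30 and 18 in the 217. Of the neural UMIs, 20 lay in the 68 cells, a log2 ratio of 1.09 (0.20 to 1.95). Genes of the 2-cell-like state had no UMI in the 116 cells and 29 in the marker-free cells. How many marker-free cells held these 29 is not given here, so no difference across the whole group is shown.

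Cell cycle genes went both ways: the summed log2 ratio was -0.07 (-0.24 to 0.10), and 2 of 17 genes past the filter were higher, a share near the 8.11% of all genes. These were Ccnd2, cyclin D2, at 181 CPM in the 116 cells against 32.3, and Cdkn1a, the cell cycle inhibitor p21, at 267.2 against 82.9. Mcm2 and Mcm3, subunits of the replicative helicase, stood lower beyond counting error but not past 2-fold, at 181 against 322.6 and 120.7 against 230.4. With Cdkn1a, the p53 target Phlda3 was higher at 181 against 55.3. Mdm2, another p53 target, stood at 293.1 against 165.9, which was not past 2-fold. The glucose transporter Slc2a3 stood at 965.5 against 304.1 and the glycolytic enzyme Pfkl at 189.7 against 64.5, the 2 of 11 glycolysis genes that were higher, beside 8.11% of all genes. Of 12 endoderm factors outside the rule in the table, 2 passed the filter and 1 was higher, beside 8.11% of all genes: Klf6, a zinc finger factor, at 232.8 against 110.6. Of 7 imprinted genes past the filter none was counted as higher or lower in the 116 cells. In the 48 cells 2 of 6 were lower, beside 7.56% of all genes: H19, a noncoding RNA, at 20.8 CPM against 207.4, and Rian, another, at 83.3 against 193.5. As folds lower these were 9.95 (1.7 to 401.8) and 2.32 (0.843 to 8.92), and the interval of Rian includes no difference. A few cells carried the H19 value of the marker-free cells: 18 of 217 held a UMI (8.29%), up to 13 in 1 cell, and 1 of the 48 did (2.08%, 0.0527 to 11.1).

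Depth and the mitochondrial share moved with the groups. Before thinning, the 116 cells had a median of 3010 UMIs (1012 to 10785) and the marker-free cells 1895 (1003 to 9782). Over 3 times the library median, 7083 UMIs, lay 12 of the 116 cells, 11 of them with 3 or 4 rule genes, and 1 marker-free cell. After thinning, the medians of detected genes were 745 and 727. The median share of mitochondrial UMIs was 4.12% in the 116 cells, 3.50% in the 48 and 4.79% in marker-free cells. Mitochondrially encoded genes summed to 53312.5 CPM in the 48 cells and 114313.4 in marker-free cells, a log2 ratio of -1.10 (-1.16 to -1.04), with 10 of 13 counted as lower, beside 7.56% of all genes. Per cell the groups differed less in the middle than at the top: mt-Nd1 ran from 0 to 47 UMIs per 1000 with a median of 7 in the 48 cells, and from 0 to 116 with a median of 9 in marker-free cells. The part of this share in the levels of the other genes was not tested.

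Cells that met the rule were rarer in the other libraries. In 2i/LIF 10 of 2889 cells met it (0.346%, 0.166 to 0.636), by the other 11 genes, since Gata6 was not analysed here in that library, in the library labelled JupLow 71 of 1200 (5.92%, 4.65 to 7.40), and in the library labelled JupHigh 18 of 2153 (0.836%, 0.496 to 1.32). In microgels 4 of 112 cells met it (3.57%, 0.982 to 8.89); the microgel table breaks off partway through its barcodes and is held here only in part. With 5 or more rule genes there were 48 of 725 cells in wild-type serum/LIF on plastic (6.62%, 4.92 to 8.68), 0 of 2889 in 2i/LIF, with an exact interval from 0 to 0.128%, 9 of 1200 labelled JupLow (0.750%, 0.344 to 1.42), 10 of 2153 labelled JupHigh (0.464%, 0.223 to 0.853) and 1 of 112 in microgels. After thinning to 1000 UMIs, 5 or more rule genes were left in 41 cells (5.66%, 4.09 to 7.59), 0, 3, 9 and 1 in the same order. In these shares the interval of wild-type serum/LIF on plastic lay above those of the 2i/LIF, JupLow and JupHigh libraries. With 5 or more rule genes the intervals of the JupLow and JupHigh libraries overlapped each other. With 1 library a condition, a difference between libraries cannot be told apart from one between conditions. The background differed too: in barcodes under 500 UMIs Col4a1 stood at 289.3 CPM in wild-type serum/LIF on plastic, 31 labelled JupLow and 17.3 labelled JupHigh, and Sparc at 1007, 388.4 and 165.7, while 2i/LIF had 2 such barcodes. Its part in the shares was not tested. No whole barcode was shared between libraries.

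In the 10 cells labelled JupHigh with 5 or more rule genes, Lama1, Sparc, Lamc1 and Serpinh1 stood within counting error of the 48 wild-type cells, and Col4a1, at 6000 CPM (4578.6 to 7723.2), stood above their 3625. Lama1, Sparc and Col4a1 are rule genes, so their levels in both groups describe the choice. Outside the rule, Lamc1 stood at 2400 CPM in the 10 cells and 156.4 in the 1413 marker-free cells of that library, Serpinh1 at 2100 against 12.7, and Rhox5 at 1100 against 53.8. Pou5f1 had no UMI in the 10 cells and 637 in the marker-free cells. Cubn had 3 UMIs and none, and Srgn 4 and none, where the 400 CPM of Srgn (109 to 1024.2) lay below the 2333.3 of the 48 wild-type cells. The list of primitive and parietal endoderm genes outside the rule had a log2 ratio of sums of 3.10 (2.87 to 3.33), beside 2.99 in wild type. Acta2 differed: it stood at 1300 (692.2 to 2223.0) in the 10 cells and 145.8 in the 48. With each rule gene read in cells chosen by the others, Col4a1 stood at 3333.3 against 6.30 in this library, and Lama1 at 2285.7 against 29.9. After thinning, neither had a UMI in cells with 3 or 4 others, and Foxa2 had none in any cell with 3 or more others. With all UMIs, Foxa2 was seen in 1 of the 10 cells with 5 or more rule genes.

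Of the 71 cells labelled JupLow that met the rule, 62 held 3 or 4 rule genes, and 18 of the 71 held 2 or more fibroblast genes with all UMIs and 6 (8.45%) after thinning. In the 62 cells Acta2 stood at 2129 CPM against 379 in marker-free cells of that library, Krt8 at 1919.4 against 243.8 and Tagln, a smooth muscle gene, at 1774.2 against 407.6, while Gata6, Sox17 and Srgn had no UMI after thinning. With all UMIs, Gata6 was seen in 3 of the 62 cells. Each rule gene was also read in cells of this library chosen by the others. Col4a1 stood at 585.4 CPM against 30.7 and Lama1 at 76.9 against 20.3, a ratio of 3.79 (1.03 to 11.8). Gata4, Foxa2 and Pdgfra had no UMI in cells with 3 or more others after thinning. With all UMIs, Foxa2 was seen in 1 cell and Pdgfra in 2 cells with 5 or more rule genes. In the 9 cells of this library with 5 or more rule genes Gata6 had 5 UMIs and Lamc1 3, and Srgn and Rhox5 had none, against 2333.3 and 1020.8 CPM in the 48 wild-type cells. Gata6 was seen in 2 of the 9 cells with all UMIs, against 38 of the 48. A count of 0 in these 9 cells has an exact interval from 0 to 409.9 CPM. The median mitochondrial share was 9.88% in these 9 cells and 6.09% in the marker-free cells of that library, and its part in these values was not tested.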

How the data were processed

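Gene counts per barcode were deposited by the authors as inDrop UMI counts, 1 table per library and not normalized; per the submitters' processing notes STAR, featureCounts, Scanpy and the builds mm10 and GRCm38 were used, with no roles or versions, and counting strand is not given in the sources used here. Columns without a gene name (0.00509% to 0.499% of UMIs) were left out. Barcodes with 1000 or more UMIs and at most 0.9 detected genes per UMI were kept: 725 of 8317 in wild-type serum/LIF on plastic, with 2017950 UMIs and a median of 2361. Each cell was thinned once to 1000 UMIs without replacement, and sums per group were scaled to CPM with exact 95% intervals. No doublet caller was run. With 1 library per condition no test was made and no p-value is given. The rule genes, every listed gene past 2-fold, the 10 largest ratios in each direction, Pou5f1, Nanog, Zfp42, Esrrb, Klf4 and Jup were to be named; genes of the groups with 5 or more and with 3 or 4 rule genes were added after their values were seen. The cells, the 23 gene lists and the measures were chosen with earlier results of these data known. A bulk table of 2i/LIF cells was not used here. The calculation was tested on simulated data. Python 3.11.15, NumPy 2.4.6, SciPy 1.17.1, pandas 2.3.3 and matplotlib 3.10.9 were used.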

Additional observations from a re-analysis of the deposited data

How the results depend on the processing

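No paired analysis was possible because the values come from no test: each condition is 1 single-cell library, and the bulk table with shared replicate numbers was not used here. The division into 5 or more and 3 or 4 rule genes was added after seeing the data. The number of genes more than 2-fold higher (149) or lower (39) depended on the filter: at a mean of 50 CPM it was 404 and 136, at 200 CPM 54 and 11, and with no filter 1396 and 1154. It also followed the choice of cells: 52 and 10 with 2 or more rule genes, 273 and 90 with 4 or more, 367 and 145 with 5 or more, and 228 and 79 without Sparc in the rule. The number lower was 25 with all UMIs, 99 with marker-free cells reweighted for depth and 18 with a pseudocount of 50. The log2 ratio of primitive and parietal endoderm genes (2.26) was 1.60 with 2 or more rule genes, 2.67 with 4 or more, 2.99 with 5 or more, 1.34 with 3 or 4, 2.01 with another random seed, 2.07 with the rule applied after thinning, 2.43 in cells of 2000 UMIs, 1.99 against all other cells, 2.51 after reweighting and 2.41 without Sparc. For collagen and laminin export (1.51) the first 4 of these gave 0.97, 1.89, 2.24 and 0.62, and the rule without Sparc 1.78. For general pluripotency (-0.66) they gave -0.38, -0.84, -1.09 and -0.42, with -0.47 after thinning first, -0.92 in cells of 2000 UMIs and -0.42 for cells chosen by a transcription factor alone. The contractile list (1.26) gave 0.86 with 2 or more, 0.56 with 5 or more, 1.60 with 3 or 4, 1.85 with all UMIs, 0.75 after thinning first, 2.10 in cells of 2000 UMIs, 0.99 against all other cells, 1.52 after reweighting, 0.71 for factor-chosen cells and 0.68 without cells that hold fibroblast genes. The fibroblast list (1.49) turned to -3.09 in factor-chosen cells, -2.28 with 5 or more rule genes and, by construction, -0.49 without the cells that hold such genes. Srgn turned to -1.01 with 3 or 4 rule genes, and Acta2 to -0.78 with 5 or more and -0.86 without the cells that hold fibroblast genes. After thinning, the share of cells with 3 or more rule genes was 8.55% in wild-type serum/LIF on plastic, 0.0346% in 2i/LIF and 1.5% labelled JupLow; with 2 or more it was 0.969% in 2i/LIF and 2.04% labelled JupHigh. Where no cause is given, the cause was not tested. Reading each rule gene in cells chosen by the others was repeated with another seed, and all 12 stayed higher. At 1000 UMIs per cell, factors with few UMIs (Foxa2, Sox17, Pdgfra) and Nanog, Esrrb and Jup are limited by counting error.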
